A study of Homo sapiens with 6 samples.

Results

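The extracellular matrix genes described here are 41 genes for collagens, laminins, other basement membrane components, adhesive glycoproteins, proteoglycans and the enzymes that process collagen. They were chosen by name, as the rows whose gene symbol equals a member, and all 41 were found among the 41471 symbols of the knockdown tables and the 34157 symbols of the Reb tables. The genes were measured in MDA-MB-231, an established triple-negative breast cancer line of mesenchymal appearance. In the knockdown experiment the cells carried lentiviral hairpins in a GFP vector as stable lines, either a scramble hairpin (Scramble) or 1 of 2 hairpins against CDK16 (CDK16-sh1 and CDK16-sh2). CDK16 is an atypical cyclin-dependent kinase. In the Reb experiment the cells were exposed for 48 h to the vehicle (DMSO) or to rebastinib (Reb), a kinase inhibitor, at 1 µM or 5 µM. Each of the 6 conditions had 1 library of polyadenylated RNA, so every difference below lacks a replicate check, and what belongs to a condition and what belongs to its library cannot be told apart.

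Collagens are triple helices of 3 chains, and many helices need chains from different genes in fixed proportion. Collagen IV forms the network of basement membranes, and laminins, trimers of an alpha, a beta and a gamma chain, form a second network to which integrins bind. Fibrillar collagens, collagen VI and the adhesive glycoproteins build the interstitial matrix. In breast tumours much of the interstitial matrix is made by fibroblasts, while carcinoma cells make laminins, collagen IV and matricellular proteins and also remodel what they contact. The chains are modified before secretion by prolyl and lysyl hydroxylases and the chaperone SERPINH1, and they are crosslinked outside the cell by lysyl oxidases.

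Total counts lay between 25838443 and 50303269 reads assigned to genes. CDK16 had 3223 counts in Scramble, 1360 in CDK16-sh1 and 846 in CDK16-sh2, which gave log2 fold changes of -1.52 (95% counting interval -1.61 to -1.43) and -1.82 (-1.93 to -1.71). Among markers of the line, VIM and CD44 together summed to between 221 and 904 RPKM (reads scaled by exon length and by the library's total), whereas ESR1, PGR, ERBB2, EPCAM and CDH1 together summed to between 6.88 and 9.28. Fibroblast markers (DCN, LUM, COL1A2, COL3A1, PDGFRA, PDGFRB) summed to at most 1.27 RPKM and endothelial markers to at most 1.79. Of the leukocyte markers CD68, which many cell lines express, was high, while PTPRC, CD3E and CD14 were at most 0.78 RPKM each. PTPRC had 35 counts in the 1 µM library and at most 3 in any other, and CDH1 had 53 and at most 7. The 100 most counted genes took 35.3% of the counts in the 5 µM library against 24.3% in DMSO, and mitochondrial genes took 16.4% against 7.19%. In CDK16-sh2 mitochondrial genes took 16.2%, against 11.3% in Scramble and 10.4% in CDK16-sh1. The part of these shifts in the differences below was not tested. In bulk RNA, fewer cells that express a gene and less RNA per cell cannot be told apart.

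Promoters of 6 members are shown, as examples among genes that stood past 2-fold from a control, or whose partner chain did. They were chosen after the values were seen. The windows are from RefSeq on GRCh38.p14, each across an annotated start site and mostly upstream of it, written in the direction of transcription. Capitals mark matches, on either strand, to TATAAA, the CCAAT box, the GC box GGGCGG, the AP-1 site TGANTCA and the hypoxia response core ACGTG. No marked matches overlapped in these 6 windows.
COL4A2, chr13:110307034-110307333, plus strand: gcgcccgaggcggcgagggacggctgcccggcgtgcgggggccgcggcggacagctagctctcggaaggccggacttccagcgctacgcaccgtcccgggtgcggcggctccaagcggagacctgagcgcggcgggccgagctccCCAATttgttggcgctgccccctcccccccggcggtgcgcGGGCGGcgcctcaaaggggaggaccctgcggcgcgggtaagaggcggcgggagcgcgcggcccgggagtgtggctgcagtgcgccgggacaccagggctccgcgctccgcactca
COL7A1, chr3:48595280-48595579, minus strand: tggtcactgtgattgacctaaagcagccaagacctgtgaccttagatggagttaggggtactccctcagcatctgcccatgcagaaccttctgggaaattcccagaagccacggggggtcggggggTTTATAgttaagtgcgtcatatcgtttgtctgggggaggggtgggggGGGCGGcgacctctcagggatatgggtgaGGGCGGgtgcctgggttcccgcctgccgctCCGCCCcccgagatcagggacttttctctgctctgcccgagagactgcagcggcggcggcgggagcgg
COL6A3, chr2:237414115-237414414, minus strand: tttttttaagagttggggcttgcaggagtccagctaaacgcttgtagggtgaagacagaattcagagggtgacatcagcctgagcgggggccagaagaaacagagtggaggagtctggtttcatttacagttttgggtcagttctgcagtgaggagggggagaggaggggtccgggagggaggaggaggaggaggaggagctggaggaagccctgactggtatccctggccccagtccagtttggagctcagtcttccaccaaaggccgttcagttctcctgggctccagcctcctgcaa
THBS1, chr15:39580829-39581128, plus strand: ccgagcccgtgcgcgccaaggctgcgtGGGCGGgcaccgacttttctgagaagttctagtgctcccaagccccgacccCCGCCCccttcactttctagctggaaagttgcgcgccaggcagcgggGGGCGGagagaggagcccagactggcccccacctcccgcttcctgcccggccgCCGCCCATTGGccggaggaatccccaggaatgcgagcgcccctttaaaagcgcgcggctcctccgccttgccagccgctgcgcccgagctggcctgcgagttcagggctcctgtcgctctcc
LAMA3, chr18:23872770-23873069, plus strand: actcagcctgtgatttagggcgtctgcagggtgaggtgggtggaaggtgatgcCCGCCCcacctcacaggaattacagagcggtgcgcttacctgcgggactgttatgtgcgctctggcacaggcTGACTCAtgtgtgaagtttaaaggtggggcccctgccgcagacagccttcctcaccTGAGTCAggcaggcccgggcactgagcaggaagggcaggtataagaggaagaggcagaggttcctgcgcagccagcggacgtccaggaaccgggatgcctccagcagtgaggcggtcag
LAMB3, chr1:209651325-209651624, minus strand: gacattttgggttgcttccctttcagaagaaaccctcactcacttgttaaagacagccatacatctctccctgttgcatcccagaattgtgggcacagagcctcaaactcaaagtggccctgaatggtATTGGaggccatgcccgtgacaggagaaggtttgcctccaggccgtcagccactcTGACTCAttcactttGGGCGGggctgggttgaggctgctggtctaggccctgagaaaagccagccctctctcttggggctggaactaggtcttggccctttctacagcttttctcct
RefSeq windows were found for 35 of the 41 members. COL1A1, COL5A2, COL8A1, COL6A1, AGRN and LOXL2 had none. The COL4A1 and COL4A2 start sites lie on opposite strands of chromosome 13, 127 bases apart, and their windows share 226 bases, so the COL4A2 window also holds most of the COL4A1 promoter. It has a CCAAT box 105 bases and a GC box 65 bases before the COL4A2 start. COL7A1 has GC boxes at 77, 48 and 18 bases before its start, and THBS1 has 4 GC boxes. No searched motif was found in the COL6A3 window. TGANTCA was found in 2 of the 35 members, LAMA3 and LAMB3, which encode chains of the same laminin, against 7.71% of all 35116 promoter windows. LAMA3 has it at 125 and 69 bases before the start and LAMB3 at 67. LAMB3 has 3 windows, and the window shown was picked because it alone holds TGANTCA. Among the LAMB3 windows CCAAT was also found only there. A member was counted if any of its windows held a motif, whereas the share is of single windows. The GC box was found in 28 members (45.0% of all windows), CCAAT in 10 (34.6%), ACGTG in 6 (21.4%) and TATAAA in 4 (11.5%). These are matches of letters only.

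In untreated cells the set had a wide range of levels. Per length, LAMB3 was the highest member in both controls, at 177 RPKM in Scramble and 221 in DMSO. LAMB3 is the beta chain of laminin-332, the laminin of epithelial anchoring. Altogether 22 members were at 10 RPKM or more in Scramble and 24 in DMSO, and 7 were below 1 RPKM in each. The least expressed were BGN, a small proteoglycan of fibroblasts with 0 counts in both controls, which allows up to 3 counts per library, and NID1, a linker of laminin and collagen IV, with 1 and 12 counts. The 41 genes took 0.688% of all counts in Scramble and 0.750% in DMSO.

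The 2 controls, both from the same line, differed strongly in some members. SPARC, a collagen-binding matricellular protein, was at 0.112 RPKM in Scramble and 7.92 in DMSO. COL6A3, the large chain of collagen VI, was at 10.9 RPKM in Scramble and 0.200 in DMSO. VCAN, the large proteoglycan versican, was at 0.0287 and 0.599 RPKM. These ratios were 70.6-fold and 20.9-fold towards DMSO for SPARC and VCAN, and 54.5-fold towards Scramble for COL6A3. COL6A2 and COL4A1 were 7.68-fold and 5.72-fold higher in DMSO. Of the 35 members at 1 RPKM or more in either control, 8 (22.9%) were at least 2-fold higher and 5 (14.3%) at least 2-fold lower in DMSO, on log2(RPKM + 0.1), against 11.1% and 15.4% of the 14900 genes at that level. Hairpin vector, experiment and library cannot be told apart here, so each treated library was compared only with its own control.

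**Figure D1:**
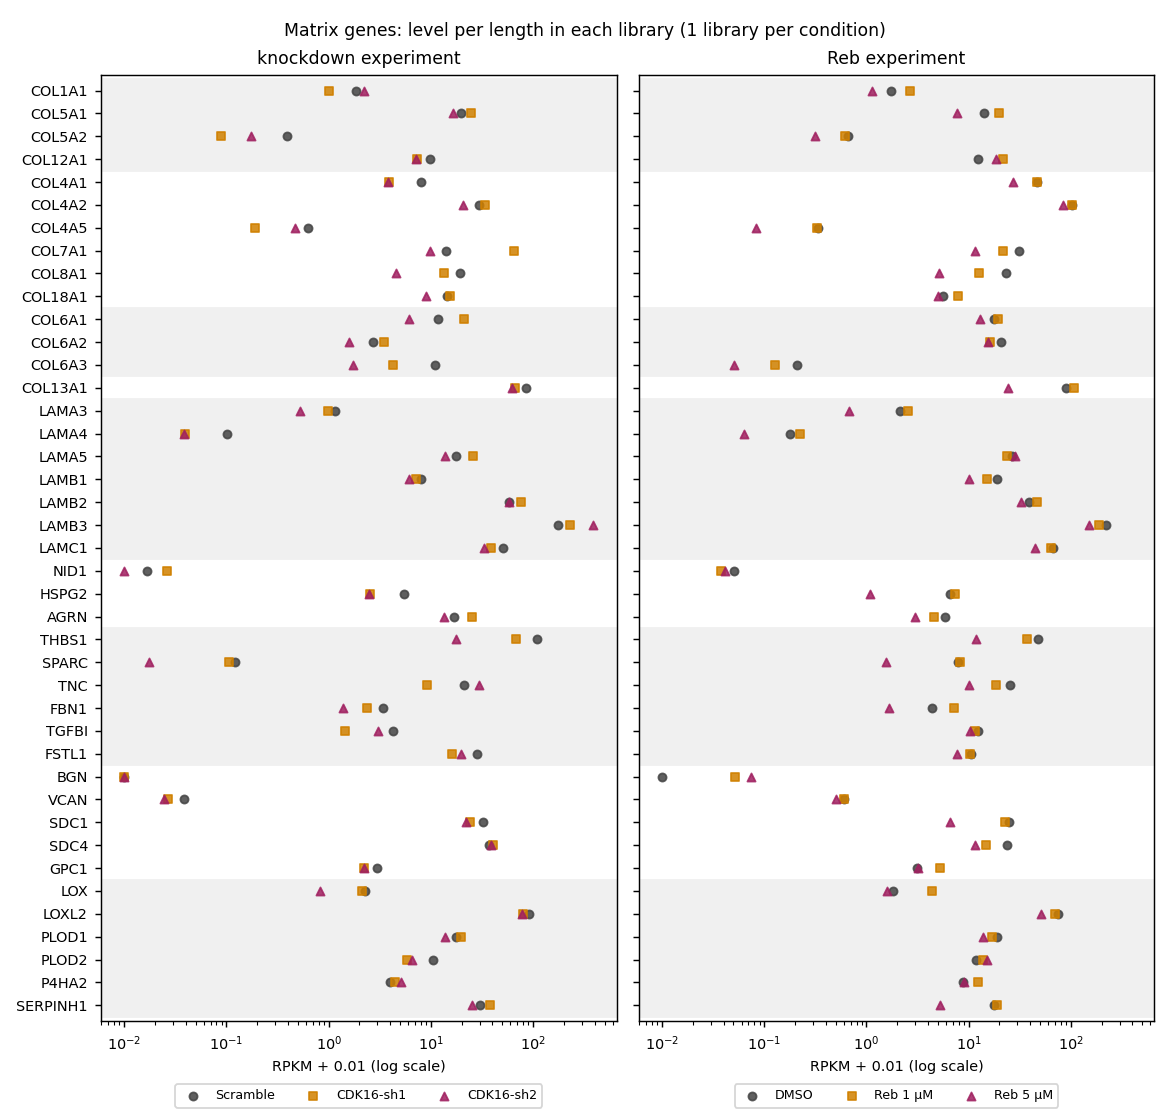
Level of each of the 41 matrix genes in RPKM plus 0.01, on a log axis, in the 3 libraries of the knockdown experiment (left) and the 3 of the Reb experiment (right). Each symbol is 1 library and shading groups genes by role. SPARC, VCAN and COL4A1 sit further right in the Reb panel, and COL6A3 further left, at 0.200 RPKM in DMSO against 10.9 in Scramble.

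Differences from the control are given as log2 fold changes of CPM (counts scaled by library size) with TMM scaling, in which a difference of 1 is 2-fold, and at least 2-fold is taken as called because this was the threshold in the study's methods. A member entered a comparison where its mean was at least 1 CPM in that experiment. This left 36 members in the knockdown experiment, without LAMA4, NID1, SPARC, BGN and VCAN, and 39 in the Reb experiment, without NID1 and BGN. Intervals are 95% Clopper-Pearson intervals that cover counting error only.

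In CDK16-sh1, 7 of the 36 members (19.4%) were at least 2-fold lower than in Scramble, where 6.86% of all 15295 tested genes were. These were COL5A2, COL4A1, COL4A5, COL6A3, HSPG2, TNC and TGFBI. COL7A1 was the only member at least 2-fold higher, against 4.33% of all genes. In CDK16-sh2, 6 members (16.7%) were at least 2-fold lower, namely COL5A2, COL8A1, COL6A3, THBS1, FBN1 and LOX, where the share of all genes was 7.62%. LAMB3 alone was at least 2-fold higher, against 2.2% of all genes. Only COL6A3 and COL5A2 were past 2-fold lower with both hairpins (5.56%, against 1.44% of all genes), and no member was higher with both, where 0.438% of all genes were. COL5A2 lay at the threshold in CDK16-sh2, at -1.0, as did COL4A1 in CDK16-sh1. With GC and length trends removed COL5A2 was -0.88 in CDK16-sh2, within 2-fold.

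Over the members the log2 fold changes had a median of -0.26 with the first hairpin (CDK16-sh1) and of -0.30 with the other (CDK16-sh2), beside 0.00 and 0.02 for all tested genes. Below their control were 22 of 36 members (61.1%) in CDK16-sh1, against 50.1% of all genes. In CDK16-sh2 these were 30 of 36 (83.3%), against 48.6%. With both treated libraries taken as 1 group against Scramble, the quasi-likelihood test of edgeR, adjusted over all genes by Benjamini-Hochberg, called 0 of 36 members lower and 0 higher, as it did for all genes (0%). Unadjusted p-values under 0.05 were found for 6 members, COL6A3, COL7A1, THBS1, COL8A1, HSPG2 and COL5A2, beside 2.5% of all genes. Of these 6 only COL7A1 was higher as a group, and this came from CDK16-sh1 (2.24), since it was -0.30 in CDK16-sh2. The smallest was that of COL6A3, at 0.000289 unadjusted, with an edgeR adjusted p of 0.553. DESeq2 also called 0 members, with 2 at an unadjusted p under 0.05. The hairpins are not replicates, so in this test their disagreement counts as spread.

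**Figure D2:**
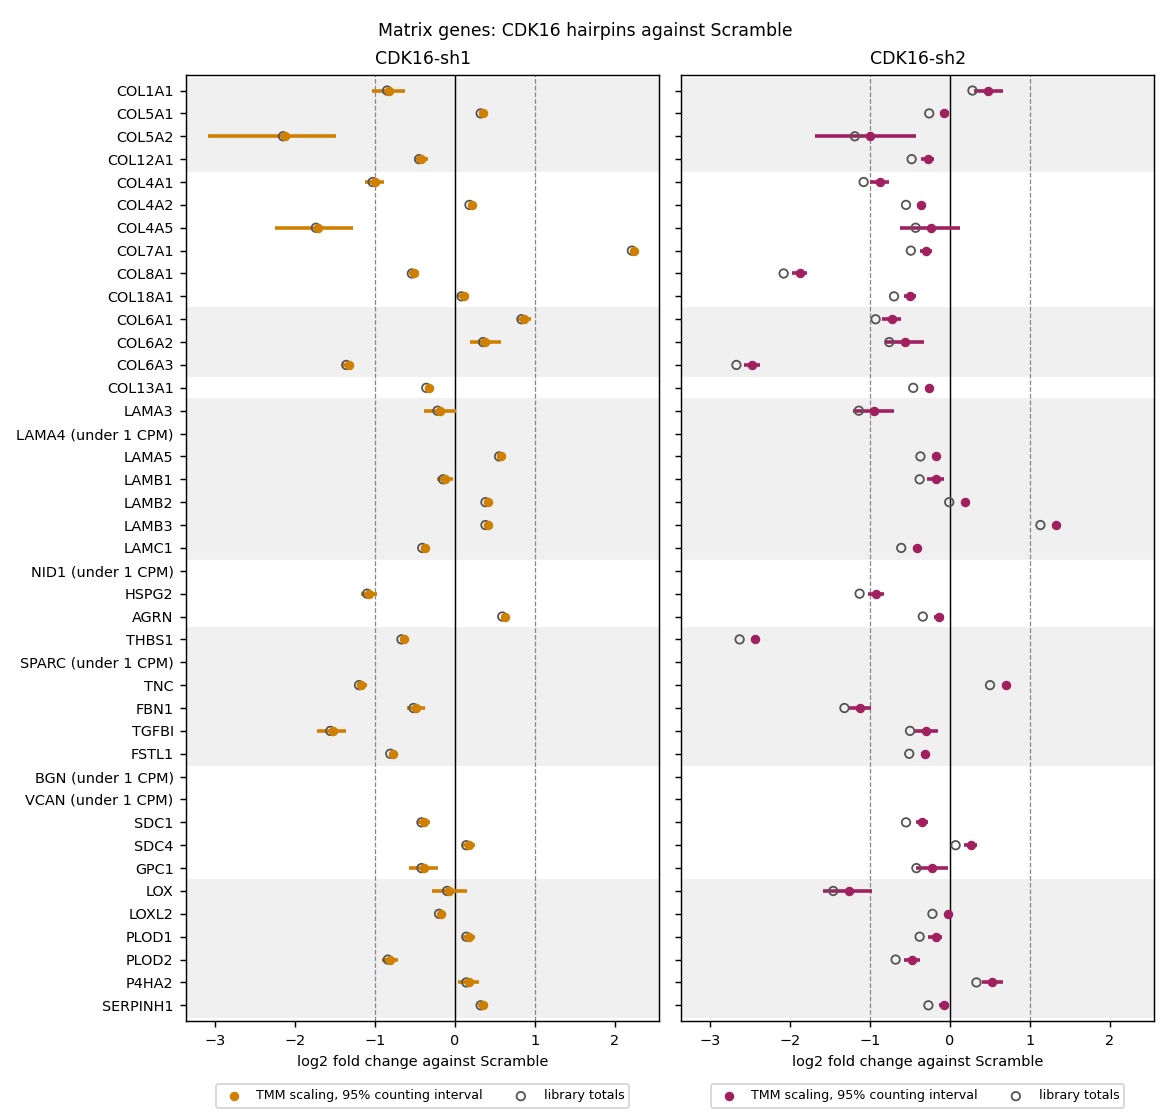
Log2 fold change of each member in CDK16-sh1 (left) and CDK16-sh2 (right) against Scramble. Filled points use TMM scaling with bars for the 95% counting interval, open circles use library totals, and dashed lines mark 2-fold. COL7A1 stands alone at 2.24 in CDK16-sh1, and COL6A3 and THBS1 are furthest left in CDK16-sh2, at -2.48 and -2.44.

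For 26 of the 36 members (72.2%) the counting intervals in the 2 hairpin libraries did not overlap, against 53.4% of all 15295 tested genes, with CDK16-sh1 above CDK16-sh2 for 17 and below it for 9. For 12 members (33.3%) the intervals lay on opposite sides of 0, against 16.1% of all genes. For 16 members (44.4%) both lay below the control, against 18.8% of all genes, and for 4 (11.1%, against 18.7%) both lay above it. These were LAMB2, LAMB3, SDC4 and P4HA2, although LAMB2 in CDK16-sh2 was -0.01 with library totals. Such shares depend on the counts as well as on the fold changes, since more counts give narrower intervals. The members had a median exon length of 8454 bases, against 4377 for tested genes of known GC content. The part of this in the shares was not tested.

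In the Reb experiment the members differed little at 1 µM. None of the 39 was at least 2-fold lower, against 1.92% of all 15655 tested genes, and LOX alone (2.56%) was at least 2-fold higher, against 1.28%. At 5 µM, 10 members (25.6%) were at least 2-fold lower and 2 (5.13%) at least 2-fold higher, in a library where 27.2% and 23.6% of all tested genes were. The share of lower members was thus close to that of all genes, and the share of higher members was smaller. The 10 were COL4A5, COL8A1, COL6A3, COL13A1, LAMA3, HSPG2, THBS1, SPARC, SDC1 and SERPINH1, and the 2 were COL12A1 and PLOD2. The 2 doses shared no member past 2-fold in the same direction (0 lower and 0 higher), whereas 1.08% of all genes were lower at both and 0.645% higher.

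The median of the members was -0.06 at 1 µM and -0.08 at 5 µM, beside 0.00 and -0.07 for all genes. At 5 µM the scaling decided the split. With TMM 20 of 39 members and 8099 of 15655 tested genes were below DMSO, and with library totals 34 and 10867 were. The median of all genes then moved from -0.07 to -0.75 with that of the members, which moved to -0.77. Once the trends with GC content and length were removed, 8113 of the 15509 genes with known GC content were below DMSO, with a median of -0.09. Of the members 15 were below DMSO, their median was 0.36, and 5 were at least 2-fold lower and 7 higher. The share of all genes past 2-fold is not given with these trends removed. COL13A1 (-0.52), LAMA3 (-0.60), HSPG2 (-0.96), SDC1 (-0.76) and SERPINH1 (-0.52) were then within 2-fold at 5 µM. COL4A5, COL8A1, COL6A3, THBS1 and SPARC were still past it. The 7 higher were COL12A1 (1.45), COL4A2 (1.16), COL18A1 (1.38), COL6A2 (1.06), LAMA5 (1.78), LAMB2 (1.18) and GPC1 (1.58). Of these only COL12A1 was called higher before the trends were removed. Directions at 5 µM are given against DMSO with TMM scaling unless another setting is named. They depend on that choice, under which the median of all genes was -0.07.

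Taking both doses as 1 group, edgeR's quasi-likelihood test called 0 of 39 members in either direction, against 0.00639% of all genes called lower and 0.0703% higher, and 0 members had an unadjusted p under 0.05. DESeq2 called 0 as well. When log2(dose + 1) was fitted as a slope instead, edgeR called HSPG2 and SPARC lower, 5.13% of the members against 11.1% of all genes, and no member higher, against 13.3%. The fitted log2 changes up to 5 µM were -2.08 for HSPG2 (adjusted p 0.0256) and -1.77 for SPARC (adjusted p 0.0434). With 1 library per dose, the spread in this fit is the distance of the libraries from a line, not that of replicates. In it 37.8% of all genes had an unadjusted edgeR p under 0.05. At 1 µM HSPG2 was 0.11 and SPARC 0.01, so neither was lower at that dose.

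**Figure D3:**
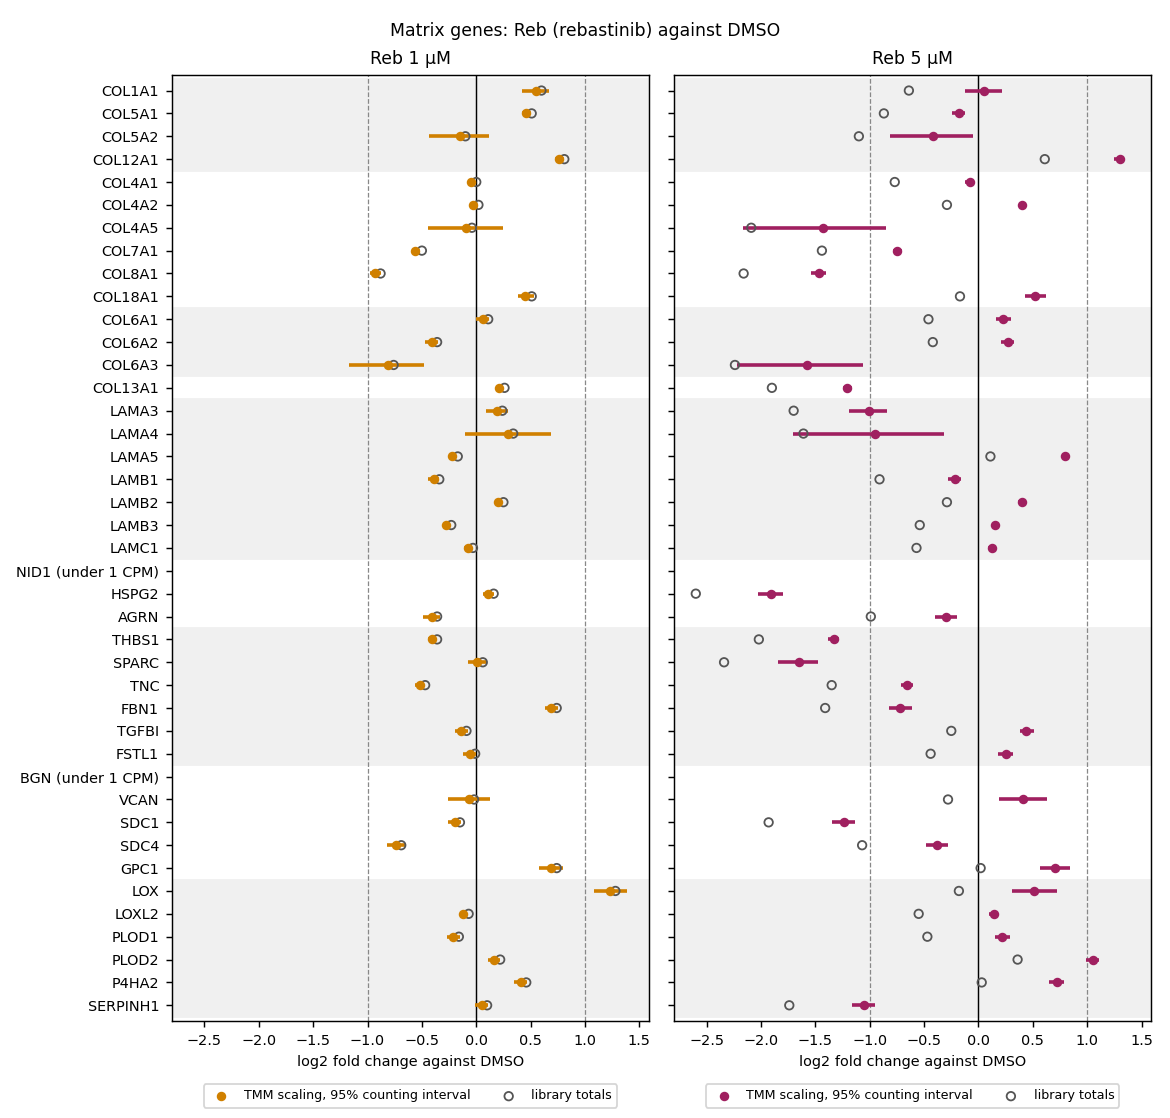
Log2 fold change of each member at 1 µM (left) and 5 µM (right) Reb against DMSO. Filled points use TMM scaling with bars for the 95% counting interval, open circles use library totals, and dashed lines mark 2-fold. At 1 µM the circles lie on the points, while at 5 µM every circle lies to the left of its point, and the members' median is -0.77 with totals and -0.08 with TMM.

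Levels in every library are given next as RPKM, which are scaled by library totals, so that values at 5 µM read lower against DMSO than the TMM fold changes beside them. Among fibrillar and fibril-associated collagens, COL5A1 (chromosome 9, 134641774 to 134844843), a chain of the collagen V that nucleates fibrils, had the highest mean over the 6 libraries. It was at 19.8 RPKM in Scramble, 24.7 in CDK16-sh1 and 16.5 in CDK16-sh2. It had 7907 counts in DMSO, 11059 at 1 µM and 3245 at 5 µM, with log2 fold changes of 0.46 and -0.18. COL12A1, which coats fibrils, was at 9.87, 7.25 and 7.09 RPKM with the hairpins in the same order and at 12.3, 21.6 and 18.6 in the Reb libraries. Both doses were thus above DMSO, by log2 fold changes of 0.76 (0.72 to 0.81) and 1.30 (1.25 to 1.34). With library totals COL12A1 was still above DMSO at 5 µM, at 0.61. COL1A1, the main chain of collagen I, was at only 1.01 to 2.64 RPKM over the 6 libraries, with -0.82 in CDK16-sh1 and 0.48 in CDK16-sh2. COL5A2, the partner of COL5A1 in collagen V, had 71 counts in Scramble, 18 in CDK16-sh1 and 32 in CDK16-sh2, which gave -2.12 (-3.09 to -1.49) and -1.0 (-1.69 to -0.42).

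Among the network-forming and anchoring collagens, COL4A2 (chromosome 13, 110305812 to 110513027) had the highest mean over the 6 libraries, at 29.9, 33.8 and 20.4 RPKM in Scramble, CDK16-sh1 and CDK16-sh2 and at 102, 103 and 83.0 in DMSO, 1 µM and 5 µM Reb. COL4A1, the other chain of the same helix, was at 8.05, 3.93 and 3.81 RPKM and at 46.1, 46.2 and 27.0. Both hairpin libraries were therefore below Scramble for COL4A1, at -1.0 (-1.12 to -0.89) and -0.88 (-1.0 to -0.76), while COL4A2 was 0.21 and -0.36. COL7A1 (chromosome 3, 48564073 to 48595267), which forms the anchoring fibrils below basement membranes, was at 14.0 RPKM in Scramble, 64.4 in CDK16-sh1 and 9.90 in CDK16-sh2. CDK16-sh1 stood far above both other libraries, at 2.24 (2.19 to 2.28), and CDK16-sh2 was slightly below Scramble, at -0.30 (-0.37 to -0.23). With Reb, COL7A1 was at 30.8, 21.7 and 11.4 RPKM, with log2 fold changes of -0.56 and -0.75. The sign at 5 µM turned to 0.14 when GC and length trends were removed.

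COL8A1, a short-chain collagen of vessel and endothelial matrix, was at 19.3, 13.3 and 4.56 RPKM in the knockdown libraries and at 23.0, 12.5 and 5.14 in the Reb libraries. All 4 treated libraries were below their control, at -0.51 and -1.88 with the hairpins and at -0.93 and -1.47 with the doses. COL4A5, a minor collagen IV chain, had 139, 50 and 109 counts in the knockdown libraries and 144, 137 and 24 in the Reb libraries, so it was past 2-fold lower in CDK16-sh1 (-1.71) and at 5 µM (-1.43). COL18A1, whose end releases endostatin, was within 2-fold throughout with TMM scaling, from -0.50 in CDK16-sh2 to 0.52 at 5 µM. The latter was -0.17 with library totals and 1.38, past 2-fold, with GC and length trends removed.

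The 3 chains of collagen VI did not move together. COL6A1 (chromosome 21, 45981737 to 46005050) was at 11.7, 20.9 and 6.15 RPKM in Scramble, CDK16-sh1 and CDK16-sh2 and at 17.8, 19.2 and 13.0 in DMSO, 1 µM and 5 µM Reb. COL6A3 (chromosome 2, 237324003 to 237414375) was at 10.9, 4.26 and 1.71 RPKM and at 0.200, 0.118 and 0.0406. COL6A3 was below its control in all 4 treated libraries, at -1.33 (-1.40 to -1.26) and -2.48 (-2.58 to -2.38) with the hairpins and at -0.81 (-1.17 to -0.48) and -1.58 (-2.22 to -1.06) with Reb, the last 2 from 198, 114 and 30 counts. COL6A1 differed from this, with 0.86 in CDK16-sh1, -0.73 in CDK16-sh2 and 0.06 and 0.23 with Reb. COL6A2 was 0.38, -0.56, -0.41 and 0.27. With library totals COL6A1 and COL6A2 turned to -0.46 and -0.42 at 5 µM. With GC and length trends removed they were 0.98 and 1.06 there. The transmembrane collagen COL13A1, found at cell adhesions, was at 85.2, 66.4 and 61.9 RPKM and at 89.2, 107 and 24.0, so that its 5 µM library alone stood past 2-fold, at -1.21.

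Ratios between partner chains within a library do not depend on its scaling by size. Partners can differ in GC content, such as 60.3% for COL5A1 and 47.9% for COL5A2, and the part of this in the ratios was not tested. The pairs were chosen after the values were seen, and each ratio is per exon length with its 95% counting interval. COL4A2 over COL4A1 was 3.71 (3.52 to 3.92) in Scramble, 8.61 (8.07 to 9.19) in CDK16-sh1 and 5.35 (4.97 to 5.76) in CDK16-sh2. Both hairpin libraries lay above Scramble, and in the Reb experiment the ratio was 2.21, 2.24 and 3.08. COL6A3 over COL6A1 was 0.934 in Scramble, 0.204 in CDK16-sh1, 0.278 in CDK16-sh2 and 0.0112, 0.00611 and 0.00313 in DMSO, 1 µM and 5 µM Reb. It was lower in every treated library than in its control, with intervals that did not overlap. COL5A1 over COL5A2 was 51.6 (40.8 to 66.1), 313 (198 to 529) and 101 (71.7 to 148) in the knockdown libraries and 21.6, 33.1 and 25.6 in the Reb libraries. COL6A1 over COL6A2 differed mostly between the experiments, at 3.86 to 6.06 in the knockdown libraries and 0.835 to 1.19 in the Reb libraries.

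**Figure D4:**
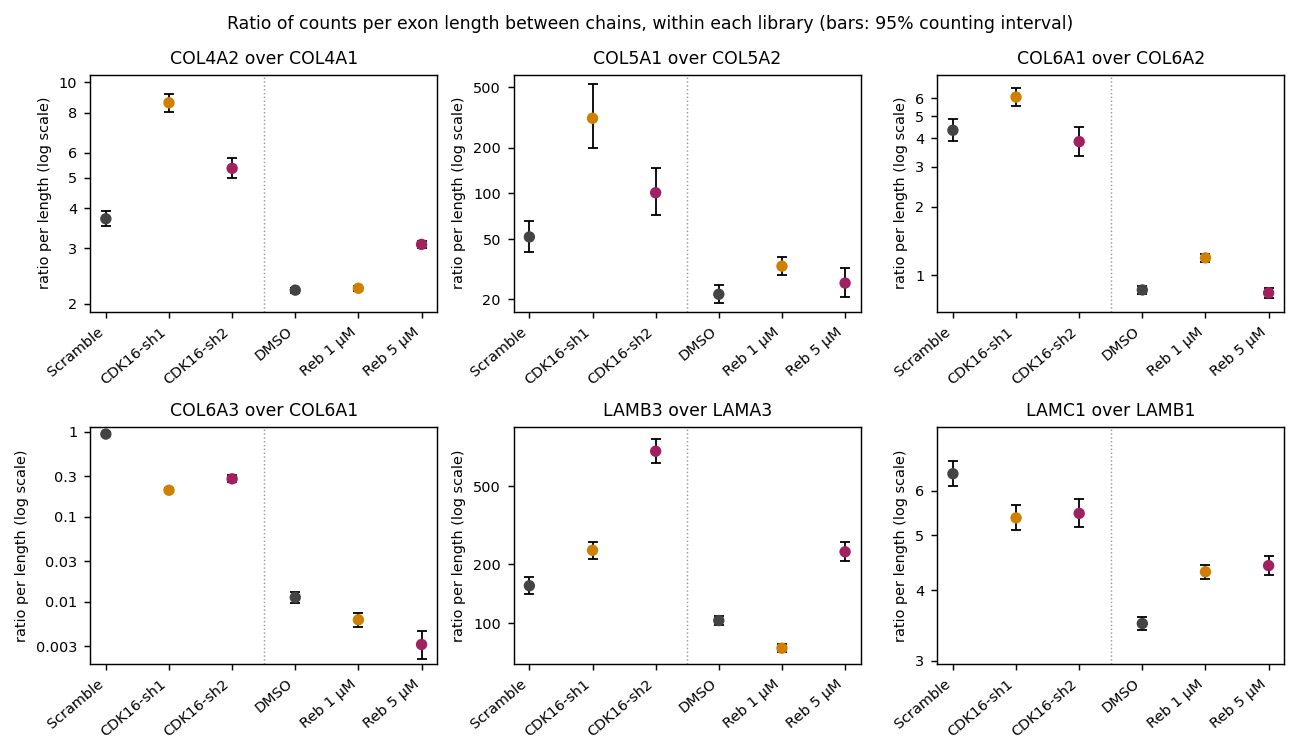
Ratio of counts per exon length between 6 pairs of partner chains, on a log axis, in each of the 6 libraries, with bars for the 95% counting interval and a dotted line between the experiments. COL4A2 over COL4A1 is highest in CDK16-sh1, at 8.61, COL6A3 over COL6A1 is below its control in all 4 treated libraries, and LAMB3 over LAMA3 is highest in CDK16-sh2, at 753.

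Laminin chains took the largest share of the counts of the set, 0.200% of all counts in Scramble, 0.238% in CDK16-sh1 and 0.277% in CDK16-sh2. LAMB3 (chromosome 1, 209614870 to 209652466) was at 177, 230 and 387 RPKM in Scramble, CDK16-sh1 and CDK16-sh2 and at 221, 188 and 152 in DMSO, 1 µM and 5 µM Reb. CDK16-sh2 stood above both other libraries, at 1.32 (1.30 to 1.35), and CDK16-sh1 was 0.41 (0.38 to 0.43). LAMA3, which pairs with LAMB3 in laminin-332, was much lower per length, at 1.14, 0.981 and 0.514 RPKM and at 2.14, 2.53 and 0.658. It went the other way in CDK16-sh2, at -0.95 (-1.21 to -0.70), and was -1.01 at 5 µM. LAMB3 over LAMA3 thus went from 155 (141 to 172) in Scramble to 235 (213 to 259) in CDK16-sh1 and 753 (653 to 872) in CDK16-sh2. With GC and length trends removed, LAMB3 was 0.13 and LAMA3 0.0 in CDK16-sh1. In CDK16-sh2 they were then 1.31 and -0.74.

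LAMA5, the alpha chain of laminin-511 and laminin-521, was at 17.5, 25.7 and 13.6 RPKM and at 26.6, 23.6 and 28.6. It was the highest laminin at 5 µM relative to DMSO, at 0.80, and stayed above DMSO with library totals, at 0.11. With GC and length trends removed it was 1.78. LAMB1, LAMB2 and LAMC1, the widely expressed beta and gamma chains, were within 2-fold in every treated library with TMM scaling. They ranged from -0.41 (LAMC1 in CDK16-sh2) to 0.41 (LAMB2 in CDK16-sh1). With GC and length trends removed LAMB2 was 1.18 at 5 µM. LAMC1 over LAMB1 was 6.43 (6.11 to 6.77) in Scramble, 5.37 in CDK16-sh1 and 5.47 in CDK16-sh2. It was 3.49 (3.40 to 3.58) in DMSO, 4.31 at 1 µM and 4.42 at 5 µM. LAMA4, the alpha chain of vessel laminins, had 27, 11 and 9 counts in the knockdown libraries and 98, 122 and 23 in the Reb libraries.

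Of the other basement membrane components, AGRN (chromosome 1, 1020123 to 1056118), the heparan sulfate proteoglycan agrin, was at 16.8, 25.3 and 13.3 RPKM and at 5.86, 4.56 and 2.95. CDK16-sh1 was above Scramble, at 0.62, and CDK16-sh2 slightly below, at -0.14. HSPG2, the proteoglycan perlecan, was at 5.45, 2.53 and 2.49 RPKM with the hairpins and at 6.51, 7.28 and 1.07 with Reb. Both hairpin libraries were lower, at -1.07 (-1.17 to -0.98) and -0.93 (-1.03 to -0.83). The 5 µM library was the lowest of all members relative to DMSO, at -1.91 (-2.03 to -1.80), and 1 µM was 0.11.

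The adhesive and matricellular glycoproteins were below Scramble for all 5 tested members in CDK16-sh1 and for 4 of 5 in CDK16-sh2. THBS1 (chromosome 15, 39581079 to 39599466), the matricellular thrombospondin that activates latent TGF-beta, was at 109, 68.6 and 17.5 RPKM in Scramble, CDK16-sh1 and CDK16-sh2 and at 47.8, 37.2 and 11.8 in DMSO, 1 µM and 5 µM Reb. All 4 treated libraries were below their control, at -0.64, -2.44 (-2.48 to -2.39), -0.41 and -1.33. TNC, the anti-adhesive glycoprotein tenascin-C, was at 20.9, 9.12 and 29.7 RPKM with the hairpins, and the hairpins lay on opposite sides of Scramble, at -1.17 (-1.23 to -1.10) and 0.70 (0.65 to 0.75). With Reb it was at 25.5, 18.4 and 10.0 RPKM. TGFBI, an integrin-binding protein, was at 4.26, 1.44 and 3.01 RPKM and at 12.4, 11.6 and 10.4, so it was past 2-fold lower in CDK16-sh1, at -1.53, and within 2-fold elsewhere.

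SPARC was near 0 with the hairpins, at 14, 15 and 1 counts, and at 7.92, 8.26 and 1.56 RPKM in DMSO, 1 µM and 5 µM Reb. The 1 µM library did not differ from DMSO beyond counting error (0.01, -0.08 to 0.10), and 5 µM was lower, at -1.65 (-1.84 to -1.48). FBN1, the microfibril protein fibrillin-1, was -0.49 and -1.12 with the hairpins and 0.69 and -0.72 with Reb. FSTL1, a secreted SPARC-like glycoprotein, was within 2-fold in all 4 treated libraries.

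Among proteoglycans SDC4, a syndecan of focal adhesions, had the highest mean over the 6 libraries, at 36.7, 40.5 and 38.4 RPKM with the hairpins and at 23.9, 14.8 and 11.4 with Reb. Both doses were lower, at -0.74 and -0.38, and both hairpin libraries slightly above Scramble, at 0.17 and 0.26. SDC1, the main epithelial syndecan, was -0.39 and -0.35 with the hairpins, -0.20 at 1 µM and -1.24 at 5 µM. GPC1, a membrane-anchored glypican, was at 2.94, 2.19 and 2.20 RPKM and at 3.13, 5.24 and 3.17, with 0.69 at 1 µM and 0.70 at 5 µM. The latter was 0.02 with library totals and 1.58 with GC and length trends removed. VCAN had 447, 434 and 276 counts in the Reb libraries and at most 11 in the knockdown libraries, and BGN had 0, 5 and 6 in the Reb libraries and 0 in the knockdown libraries.

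Of the genes for collagen processing, LOXL2 (chromosome 8, 23297189 to 23425328), a lysyl oxidase, was the highest. It had 13526, 14594 and 12349 counts in the knockdown libraries (91.7 RPKM in Scramble) and was at 74.3, 70.6 and 50.6 RPKM with Reb. With TMM scaling it was among the steadiest, with log2 fold changes from -0.17 to 0.14. At 5 µM it was -0.55 with library totals. With GC and length trends removed it was -0.38 in CDK16-sh1 and 0.79 at 5 µM. LOX, the founding lysyl oxidase, was at 2.27, 2.12 and 0.818 RPKM with the hairpins and at 1.80, 4.38 and 1.59 with Reb. The hairpins differed, at -0.07 and -1.26 (-1.59 to -0.97), and the 1 µM library stood above both others, at 1.23 (1.08 to 1.39). At 5 µM LOX was 0.51, and -0.18 with library totals. PLOD2, the lysyl hydroxylase that directs stable crosslinks, was at 10.5, 5.88 and 6.57 RPKM and at 11.8, 13.7 and 15.1. Both hairpin libraries were lower, at -0.81 and -0.48, and 5 µM was higher, at 1.05, which became 0.36 with library totals. With GC and length trends removed PLOD2 was -0.21 and -0.14 with the hairpins and 0.40 at 5 µM.

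P4HA2, a prolyl hydroxylase subunit, was at 4.01, 4.41 and 5.05 RPKM and at 8.84, 12.2 and 9.01, above the control in all 4 treated libraries, from 0.17 to 0.72, and at 5 µM at 0.03 with library totals. PLOD1, a second lysyl hydroxylase, was within 2-fold throughout. SERPINH1, the collagen chaperone HSP47, was 0.35 and -0.08 with the hairpins, 0.05 at 1 µM and -1.05 at 5 µM.

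The share of all counts on the 41 genes was 0.688% in Scramble, 0.692% in CDK16-sh1 and 0.573% in CDK16-sh2. Within this sum the adhesive glycoproteins went from 0.153% to 0.0907% and 0.0666%, while the network-forming and anchoring collagens went from 0.0791% to 0.130% and 0.0441%. In the Reb experiment the share was 0.750% in DMSO, 0.731% at 1 µM and 0.471% at 5 µM.

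In CDK16-sh1 fold changes followed the GC content of the gene, among members as among all genes. Pearson's r was 0.46 over the 36 members and 0.44 over 15161 genes, given as a description since genes share a library. The median GC content of the members was 56.0%, above the 48.5% of all tested genes, and 20 of the 36 lay in the highest tertile of all genes. In that tertile the median log2 fold change was 0.19 for members and 0.36 for all genes. With GC and length trends removed COL7A1 was 1.99 and COL6A3 -1.16 in CDK16-sh1, and the number of members at least 2-fold lower was again 7. At 5 µM r was 0.01 over 39 members and -0.20 over 15509 genes.

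**Figure D5:**
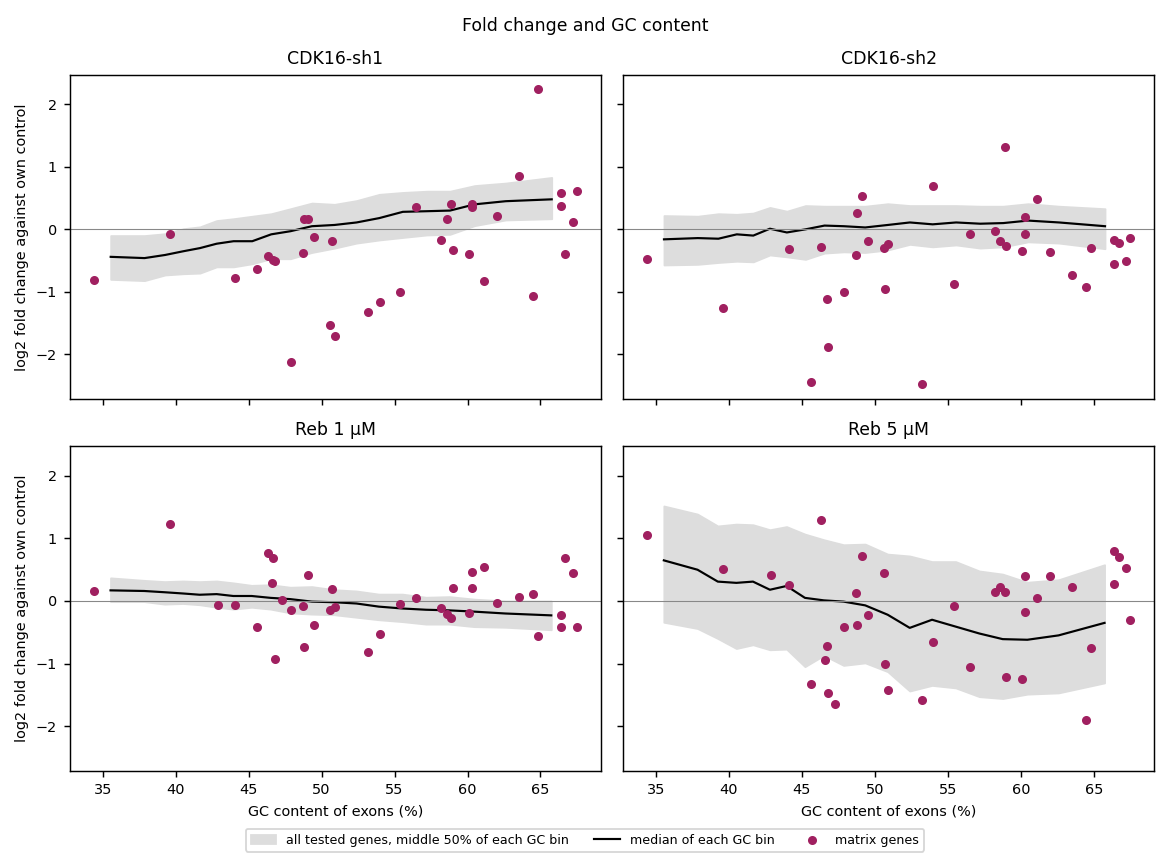
Log2 fold change against exon GC content in percent for each member (points) in the 4 treated libraries, over the median (line) and the middle 50% (shading) of all tested genes in 20 bins of GC content. In CDK16-sh1 the line climbs with GC content, and COL7A1 lies far above it at 2.24.

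A further list of 62 matrix genes outside the set, such as other collagens, fibulins and latent TGF-beta binding proteins, was counted beside it. Of these 35 were tested in the knockdown experiment and 37 in the Reb experiment. In CDK16-sh1, 2 were at least 2-fold lower and 0 higher, against 6.86% and 4.33% of all tested genes, with a median of -0.12. In CDK16-sh2, 10 were lower and 0 higher, against 7.62% and 2.2%, with a median of -0.35. At 1 µM 2 were lower and 0 higher, against 1.92% and 1.28%. At 5 µM 13 were lower and 5 higher, against 27.2% and 23.6%, with a median of -0.23. Below their control were 19 (54.3%) and 23 (65.7%) of 35 with the hairpins, against 50.1% and 48.6% of all genes. With Reb these were 18 (48.6%) and 21 (56.8%) of 37, against 49.8% and 51.7%.

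For 14 of the 41 members, exons of a gene on the opposite strand overlap those of the member in GENCODE 29, among them COL4A2, LAMA5, HSPG2, THBS1, SPARC, TNC, LOX, LOXL2 and P4HA2. The library kit keeps strand, but how strand was treated in counting is not given in the sources used here, so reads of these pairs cannot be told apart. Exons of another gene on the same strand overlap those of COL7A1, LAMA5, LAMB3, AGRN, FSTL1 and LOXL2, the last with ENTPD4. The part of these overlaps in the counts was not tested.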

How the data were processed

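RNA-seq libraries of MDA-MB-231 cells (6 conditions, 1 library each) were analysed. The authors deposited, for each gene symbol, raw read counts and RPKM values, which equal the counts divided by exon length and library total. The submitters' processing notes name Trimmomatic, featureCounts, Subread 1.5.1 and GRCh38. The aligner, the annotation and the strand setting are not given in the sources used here. Genes averaging at least 1 CPM in an experiment were kept, TMM factors were computed on them, and log2 fold changes were taken between CPM after adding a prior count of 2 (edgeR 4.0.16, R 4.3.3). Fits ran over all genes: edgeR's quasi-likelihood test, adjusted by Benjamini-Hochberg and called at 0.05 and 2-fold, and DESeq2 1.42.0 as an alternative. The fold changes and the edgeR test, but not DESeq2, were also run on simulated counts. GC content was known for 99.1% of tested genes. Total counts ranged from 25838443 to 50303269, and intervals cover counting error only. Named with a level in every library were the members past 2-fold in both treated libraries, the 3 highest and 3 lowest fold changes in each treated library (mean of at least 5 CPM for both) and the highest member of each of 9 role groups. The members and lists were chosen with earlier results of these data known.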

Additional observations from a re-analysis of the deposited data

Results flagged for a closer look

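COL7A1 and TNC were singled out because the 2 hairpins lay on opposite sides of Scramble, with 1 of them past 2-fold and the other beyond its counting interval. For COL7A1 the log2 fold change in CDK16-sh1 minus that in CDK16-sh2 was 2.54, from 2.24 and -0.30, and the raw counts were 4006 in Scramble, 22861 in CDK16-sh1 and 3025 in CDK16-sh2. For TNC it was -1.87, from -1.17 and 0.70, with 5207, 2809 and 7861 counts. With 1 library per hairpin these differences were not tested.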

How the results depend on the processing

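No paired analysis was possible because each condition had 1 library. Leaving out 1 treated library of the 1-group test leaves the comparison of the other with its control, which is given in the report without a test. None of the members named with levels changed sign where it was past 2-fold. Lowering the threshold to 1.5-fold gave 11 lower and 3 higher members with the hairpin CDK16-sh1, 10 lower and 2 higher with CDK16-sh2, 3 and 4 at 1 µM and 5 higher at 5 µM. Shares of all genes are not given for the alternative thresholds and settings, so these counts show only how the members' numbers moved. With GC and length trends removed CDK16-sh2 had 4 lower members, as COL5A2 (-0.88) and FBN1 (-0.83) were then within 2-fold. The median in CDK16-sh2 was -0.50 with library totals, -0.49 with the authors' RPKM plus 0.1 and -0.20 with GC and length trends removed. At 1 µM dropping the filter on low counts gave 2 higher members. At 5 µM library totals gave 16 lower and 0 higher members and a median of -0.77, RPKM gave 0 higher and -0.77, GC and length trends removed gave 5 lower, 7 higher and 0.36, TMM factors from all genes (an alternative chosen after seeing the data) gave 1 higher and -0.29, no filter gave a median of 0.05 and a mean of at least 5 CPM 0.12. The dose term gave 2 lower members where the 1-group test gave 0. Under the other alternatives run these counts stayed within 1.5 times and the medians within 0.1. Low counts limit COL5A2, COL4A5, LAMA4 and, in the Reb libraries, COL6A3. The cause of these shifts was not tested.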
